A study of Mus musculus with 4 samples.

Results

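The genes described here are 49 components of bone morphogenetic protein (BMP) and transforming growth factor beta (TGF-beta) signalling, chosen by name from the 23946 genes with an FPKM value in each library, and all 49 were present. They comprise 11 BMP and GDF ligands, 5 TGF-beta and activin ligands, 12 receptors and co-receptors, 8 Smad proteins, 8 secreted or membrane antagonists and modulators, and 5 latent TGF-beta binding and matrix proteins. FPKM is the number of sequenced fragments per kilobase of transcript, scaled to all mapped fragments, so that levels of genes of different length can be set side by side. Bulk RNA-seq was carried out on calvarial bone of C57BL/6J mice at postnatal day 21, with 1 library each for wild-type frontal, wild-type parietal, *Twist1*+/- frontal and *Twist1*+/- parietal bone. The mutant mice are heterozygous for loss of *Twist1*, a basic helix-loop-helix transcription factor, and 12 mice per strain were used. How many of them entered each library is not given in the sources used here, and the study's methods mention replicates of each bone, of which 1 library a group was analysed here. The parietal samples held pericranium and dura mater beside the bone plate. The frontal bone is of neural crest origin and the parietal bone of mesoderm origin, and the study asked whether *Twist1* haploinsufficiency acts differently on them. Since each group has 1 library, differences could not be set against a spread between replicates, and neither p-values nor intervals nor detection limits are given.

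BMPs, GDFs, TGF-betas and activins are secreted dimers that bring together type I and type II serine/threonine kinase receptors. The type I receptor then phosphorylates receptor Smads, chiefly Smad1, Smad5 and Smad9 for BMPs and Smad2 and Smad3 for TGF-betas and activins, and these enter the nucleus with Smad4. Smad6 and Smad7 inhibit the pathway, antagonists such as noggin and follistatin bind ligands outside the cell, and TGF-beta is stored in bone matrix in a latent complex. In the skull, BMPs drive osteoblast differentiation, and the balance of BMP and TGF-beta signals with their antagonists takes part in keeping sutures open.

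*Twist1*, the check of the labels, was at 59.0 FPKM in the frontal bone of the wild type and 30.4 FPKM in that of *Twist1*+/- mice, a difference of 1.94-fold. In the parietal bones it was at 52.5 FPKM in the wild-type library and 50.7 FPKM in the other, a difference of 1.04-fold. *Twist1* level therefore did not separate the parietal libraries by genotype, and the second of them, named only by its label, is called the mutant-labelled parietal library below. Genes at very low FPKM gave a relative depth. 1 read was worth 1.27 times as much FPKM in the *Twist1*+/- frontal than in the wild-type frontal library, 1.34 times as much in wild-type parietal than in *Twist1*+/- frontal bone, and 0.973 times as much in the mutant-labelled parietal library as in wild-type parietal bone, so wild-type frontal bone was sequenced deepest. Of 93 genes at or above 1000 FPKM in a library, 5 were listed at 0 in another, so a 0 in these files can be a failed estimate.

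The tissue was checked by lists of marker genes. Among 10 osteoblast markers 9 were above 0 in each library, the exception being *Col1a1*, listed at 0 in 3 libraries. Other cell types differed between libraries. Series of 4 values are given throughout in the order frontal wild-type, parietal wild-type, frontal *Twist1*+/- and mutant-labelled parietal library. The summed FPKM in that order was 117, 3643, 1400 and 1806 for skeletal muscle markers. It was 2306, 126, 675 and 777 for brain and meninges markers, and 391, 27.6, 1862 and 1901 for nasal and airway epithelium markers. Single genes can set such sums. In the brain and meninges sum *Ptgds* alone gave 1975, 52.8, 327 and 428 FPKM, while *Mbp* was at 108, 34.8, 208 and 270 FPKM. Wild-type parietal bone thus had the highest muscle sum and the lowest brain and epithelium sums. The sums were 15307, 7482, 17013 and 9649 for neutrophil markers, 2614, 9181, 3259 and 6717 for osteoclast markers, and 404, 759, 367 and 574 for macrophage markers. They were 251, 611, 323 and 527 for osteocyte markers, 14.9, 40.5, 16.0 and 29.9 for cartilage markers, and 11.9, 11.7, 17.7 and 19.3 for skin markers. In the skin sum *Perp* alone gave 8.75, 8.65, 11.9 and 9.85 FPKM, while *Krt5* was at 0.236, 0.0936, 1.55 and 3.17 FPKM. Endothelial markers summed to 189, 206, 203 and 260 FPKM. Of the 7 erythroid markers found, the globin genes *Hba-a1* and *Hbb-b1* were listed at 0 in wild-type frontal bone, which makes the erythroid sums not comparable. The part of these differences in the results that follow was not tested.

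A gene was counted as different in a comparison when the ratio of its values exceeded 3-fold and at least 1 FPKM was reached in the higher library. A 2-fold line was used to describe smaller differences, and naming the genes beyond it was decided after their values were seen. Of the 49 genes 47 reached 1 FPKM in some library. *Gdf5* and *Gdf6*, growth factors of joint formation, did not. *Gdf5* was at 0.199 FPKM in frontal and 0.926 FPKM in parietal wild-type bone, 0.308 FPKM in frontal *Twist1*+/- bone and 0.266 FPKM in the mutant-labelled parietal library. *Gdf6* was at 0.0121, 0.0319 and 0.0801 FPKM in wild-type frontal, *Twist1*+/- frontal and the mutant-labelled parietal library and was listed at 0 in wild-type parietal bone. Both lie under the level at which a ratio was read.

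Across the 4 libraries the genes were stable relative to the transcriptome at the 3-fold line. The highest and lowest libraries differed by less than 3-fold in 43 of 47 genes (91.5%), against 79.7% of the 14760 genes that reached 1 FPKM. At the 2-fold line this was not so, with 24 of 47 genes (51.1%) against 57.8%. Median levels over the 49 genes were 8.06 FPKM in frontal and 9.45 FPKM in parietal wild-type bone, 8.39 FPKM in frontal *Twist1*+/- bone and 10.7 FPKM in the mutant-labelled parietal library.

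**Figure D1:**
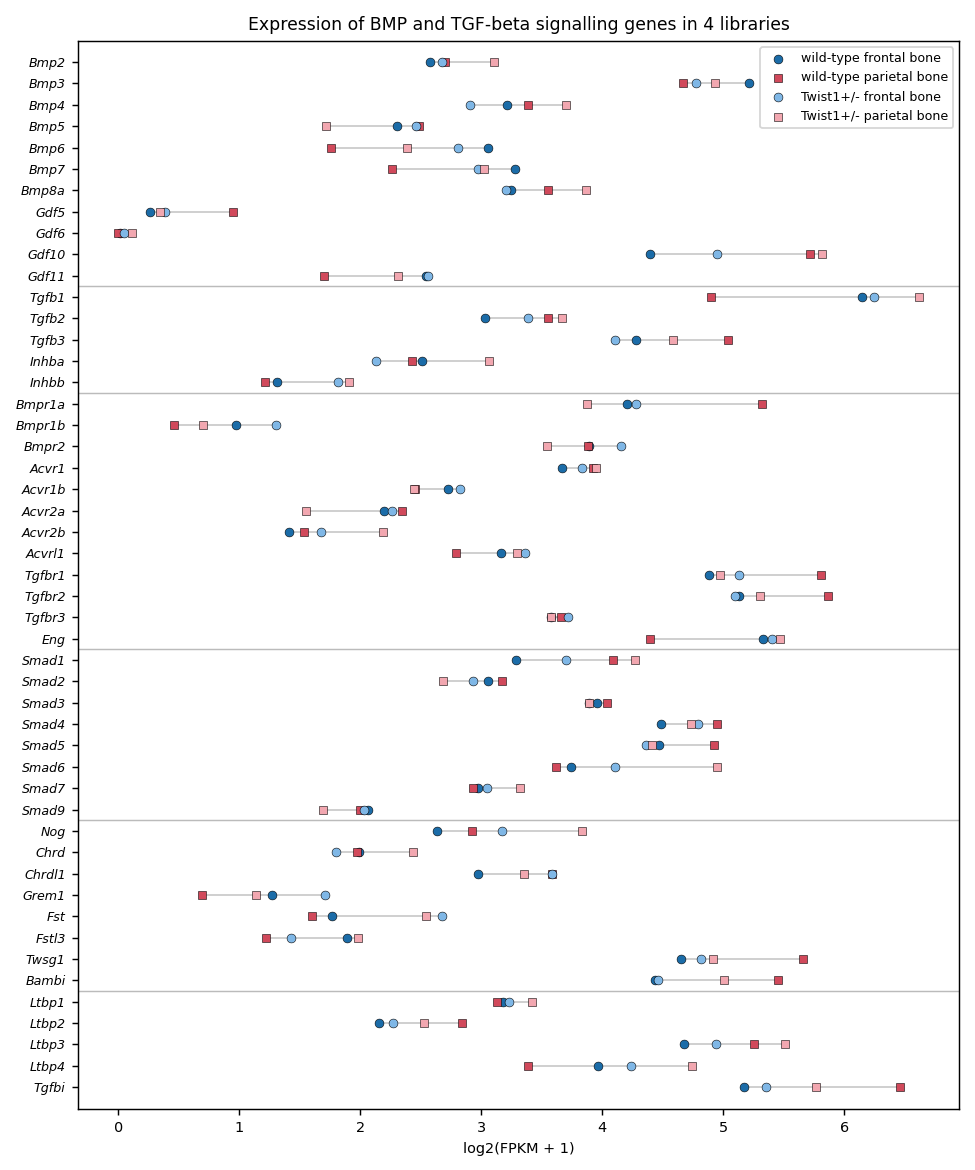
Level of each of the 49 genes in the 4 libraries, as log2(FPKM + 1) on the horizontal axis, with 1 point per library and a grey line from the lowest to the highest. Grey horizontal rules separate the 6 roles. *Tgfb1* reached 97.4 FPKM and *Tgfbi* 87.2 FPKM, while *Gdf5* and *Gdf6* stayed under 1 FPKM.

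In the comparison of the mutant-labelled parietal library with wild-type parietal bone, 46 genes reached 1 FPKM in the higher library. Only 1 of these, *Tgfb1*, differed by more than 3-fold (2.17%), against 8.19% of 13914 genes. Past 2-fold, 8 genes were higher (17.4%, against 10.8% of all genes) and 3 were lower (6.52%, against 9.4%). The higher ones were *Tgfb1*, *Inhbb*, *Eng*, *Smad6*, *Nog*, *Fst*, *Fstl3* and *Ltbp4*, and the lower ones were *Bmp5*, *Bmpr1a* and *Acvr2a*. The median log2 ratio was 0.22 over the 46 genes and -0.06 over all genes, and the median size of the log2 ratio, regardless of sign, was 0.57 and 0.52. In these bulk libraries fewer cells of a type and less RNA per cell cannot be told apart.

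Between the frontal bones the differences were smaller. None of 47 genes differed by more than 3-fold, against 3.89% of 14341 genes, and *Fst* was the 1 gene past 2-fold on the higher side (2.13%, against 4.98%). No gene was past 2-fold on the lower side, against 2.2% of all genes. The median size of the log2 ratio was 0.22 over the 47 genes and 0.20 over all genes.

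Between the wild-type bones 1 of 46 genes, *Bmp6*, differed by more than 3-fold (2.17%), against 13.3% of 14214 genes. In parietal bone 5 genes were more than 2-fold higher (10.9%, against 11.2%), namely *Gdf10*, *Bmpr1a*, *Twsg1*, *Bambi* and *Tgfbi*. A further 6 were more than 2-fold lower (13.0%, against 15.6%), namely *Bmp6*, *Bmp7*, *Gdf11*, *Tgfb1*, *Grem1* and *Fstl3*. The shares at 2-fold were near those of all genes.

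Between the bones labelled *Twist1*+/- none of 47 genes differed by more than 3-fold, against 4.09% of 14305 genes. *Inhba* was the 1 gene more than 2-fold higher in parietal bone (2.13%, against 2.98%) and *Bmpr1b* the 1 gene more than 2-fold lower (2.13%, against 8.92%). The wild-type parietal library, which enters both the parietal comparison and that of the wild-type bones, was the highest of the 4 for 14 of 47 genes (29.8%, against 35.5% of all genes) and the lowest for 16 (34.04%, against 34.8%). The mutant-labelled parietal library was the highest for 20 genes (42.6%), against 21.9% of all genes. Ratios of this library to the other parietal and the *Twist1*+/- frontal library rose with the GC content of the transcript, as described below. The median GC content was 52.5% over the 49 genes and 49.6% over 19341 genes. The share of 42.6% was not recomputed with that trend subtracted.

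**Figure D2:**
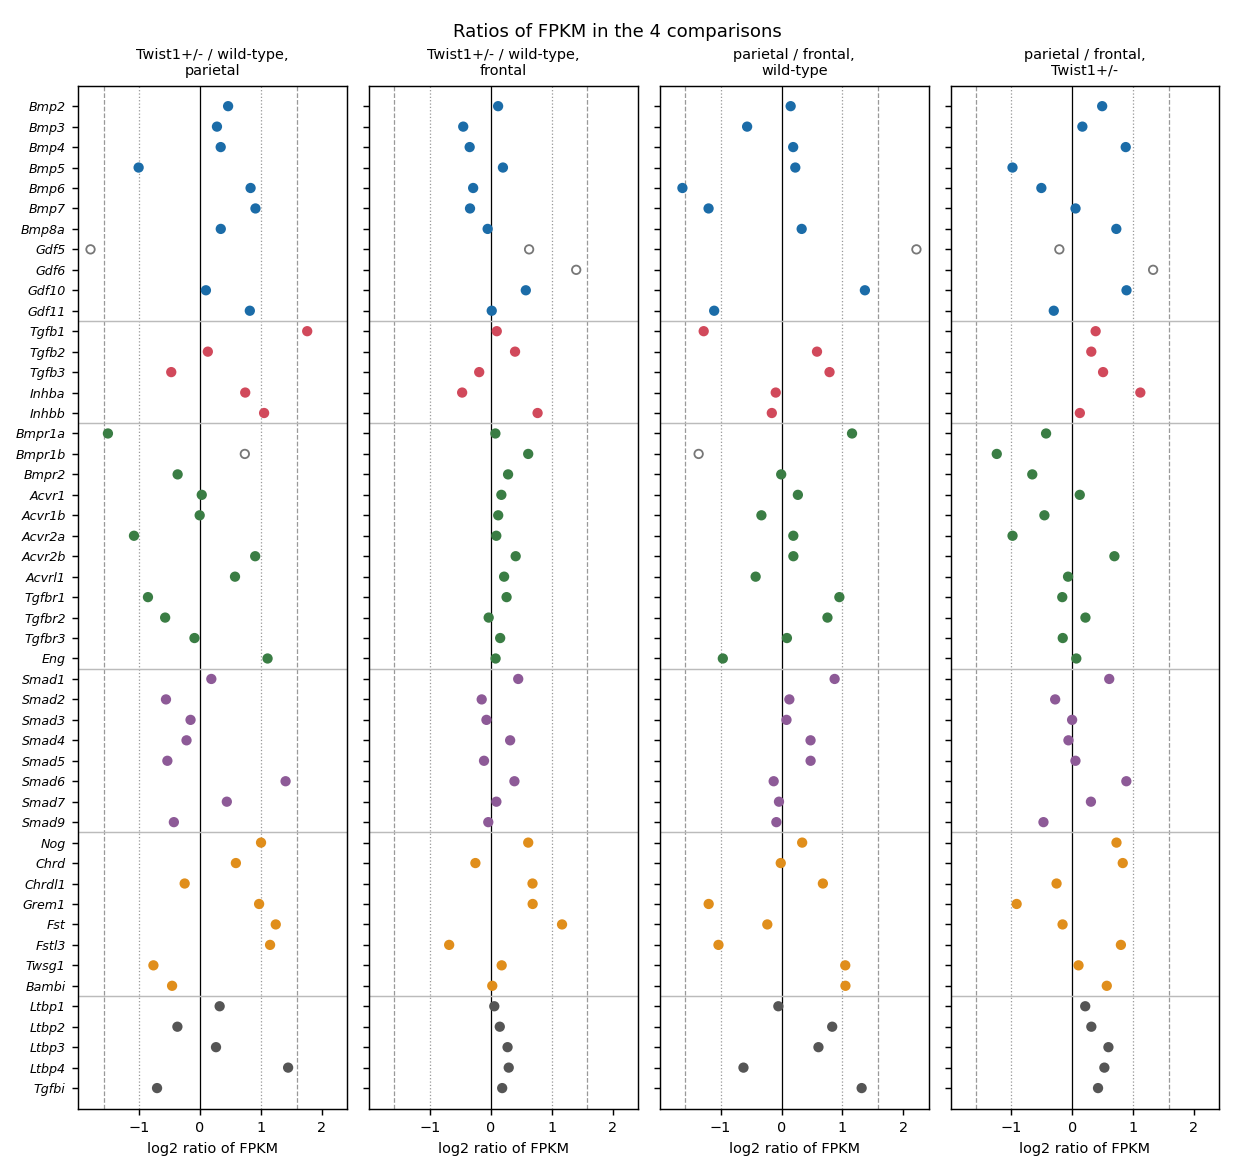
Log2 ratio of FPKM for each gene in the 4 comparisons, coloured by role, with dotted lines at 2-fold and dashed lines at 3-fold. Open points are genes under 1 FPKM in both libraries. *Tgfb1* in the parietal comparison and *Bmp6* in the wild-type comparison are the filled points beyond the dashed lines.

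Among the BMP and GDF ligands, *Bmp6* (chr13:38436995-38592183 on the plus strand of mm9), which encodes an osteogenic BMP also known for its part in iron homeostasis, was at 7.34 FPKM in frontal and 2.37 FPKM in parietal wild-type bone, 6.00 FPKM in frontal *Twist1*+/- bone and 4.22 FPKM in the mutant-labelled parietal library. It was 3.09-fold lower in parietal than in frontal bone of the wild type, and 1.42-fold lower between the bones labelled *Twist1*+/-. Wild-type parietal bone was the low library, and the frontal bones were the higher pair. *Bmp7*, another osteogenic ligand, was at 8.69, 3.78, 6.86 and 7.11 FPKM in the same order, and *Gdf11*, a ligand that signals through activin receptors, at 4.84, 2.25, 4.89 and 3.96 FPKM. All 3 genes thus had their lowest value in wild-type parietal bone, and the other libraries of *Bmp7* and *Gdf11* lay close together.

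*Gdf10*, a divergent family member also known as BMP3B, had the opposite order of bones. It was at 20.01 FPKM in frontal wild-type and 29.8 in *Twist1*+/- frontal bone, and at 51.7 in wild-type parietal and 55.2 in the mutant-labelled parietal library. Both parietal libraries were above both frontal ones. *Bmp3*, a BMP that restrains bone formation, was at 36.1 FPKM in frontal and 24.4 FPKM in parietal wild-type bone, 26.4 FPKM in frontal *Twist1*+/- bone and 29.6 FPKM in the mutant-labelled parietal library. These 2 genes were the most abundant BMP or GDF ligands by FPKM.

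*Bmp2* and *Bmp4*, which encode the ligands best known for inducing bone, stayed within 2-fold across the libraries. *Bmp2* ranged from 4.97 to 7.58 FPKM and *Bmp4* from 6.52 to 12.0 FPKM, both with the highest value in the mutant-labelled parietal library. *Bmp8a* ranged from 8.20 to 13.5 FPKM, but 6.82% of its windows of 75 bases, the read length, also occur in its paralog *Bmp8b*, so its level is less certain. *Bmp5*, a ligand of skeletal patterning, was at 3.93, 4.59 and 4.51 FPKM in wild-type frontal, wild-type parietal and *Twist1*+/- frontal bone and at 2.28 FPKM in the mutant-labelled parietal library. That library stood apart from the other 3, 2.01-fold under wild-type parietal bone, which is at the edge of the 2-fold line.

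Among the TGF-beta and activin ligands, *Tgfb1* (chr7:26472021-26490096 on the plus strand of mm9), the main TGF-beta of bone matrix and also expressed by blood cells, was at 69.8 FPKM in frontal and 28.8 FPKM in parietal wild-type bone, 74.7 FPKM in frontal *Twist1*+/- bone and 97.4 FPKM in the mutant-labelled parietal library. It was the most abundant ligand in each library but wild-type parietal bone, where *Gdf10* and *Tgfb3* were higher. It was 3.39-fold higher in the mutant-labelled parietal library than in wild-type parietal bone (log2 ratio 1.76, and 1.06 with the trend by GC content subtracted), 1.07-fold higher in *Twist1*+/- than in wild-type frontal bone, and 2.43-fold lower in wild-type parietal than in wild-type frontal bone. Wild-type parietal bone was thus the low library, and the other 3 lay within 1.40-fold of each other. All 8 neutrophil markers were also lower in wild-type parietal than in wild-type frontal bone, and all 8 were higher in the mutant-labelled parietal library than in wild-type parietal bone. All 7 macrophage markers found went the other way in both comparisons. The part of these cells in the level of *Tgfb1* was not tested.

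*Tgfb3*, a TGF-beta isoform of the sutures and palate, was at 18.4, 31.8, 16.2 and 22.9 FPKM in the order of libraries given above. *Tgfb2*, the isoform abundant in fetal sutures and dura mater, ranged from 7.16 to 11.7 FPKM. Both were higher in parietal than in frontal bone of each genotype label, with 1.73-fold in the wild type and 1.42-fold in the libraries labelled *Twist1*+/- for *Tgfb3*. *Inhba*, the activin A subunit, was at 4.69, 4.39, 3.38 and 7.34 FPKM, and *Inhbb*, the activin B subunit, at 1.48, 1.32, 2.52 and 2.74 FPKM. *Inhbb* was higher with the *Twist1*+/- label in both bones, by 2.07-fold in parietal and 1.70-fold in frontal bone. It was 1 of 19 genes of 46 that were higher in both, against 3089 of 13430 genes.

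The receptors divided in the parietal comparison. *Bmpr1a* (chr14:35223920-35316527 on the minus strand of mm9), a type I BMP receptor of osteoblasts, was at 17.4 FPKM in frontal and 38.9 FPKM in parietal wild-type bone, 18.4 FPKM in frontal *Twist1*+/- bone and 13.6 FPKM in the mutant-labelled parietal library. It was 2.85-fold lower in the latter than in wild-type parietal bone (log2 ratio -1.51), the lowest ratio among the 46 genes, and wild-type parietal bone stood above the other 3 libraries. *Acvr2a*, a type II receptor for activins and BMPs, was at 3.58, 4.09 and 3.81 FPKM in wild-type frontal, wild-type parietal and *Twist1*+/- frontal bone and at 1.93 FPKM in the mutant-labelled parietal library. Its level was thus similar in 3 libraries and 2.12-fold under wild-type parietal bone in the fourth.

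The TGF-beta receptors were the most abundant receptors in wild-type parietal bone. *Tgfbr1*, the type I receptor, was at 28.5, 54.9, 34.1 and 30.4 FPKM, and *Tgfbr2*, the type II receptor, at 33.9, 57.2, 33.1 and 38.5 FPKM in the order of libraries given above. Each had its highest value in wild-type parietal bone, with the other 3 libraries close together. Endoglin, encoded by *Eng*, is a TGF-beta and BMP co-receptor of endothelial and other cells and had the reverse pattern. It was at 39.2, 20.1, 41.4 and 43.3 FPKM, with wild-type parietal bone low, 2.16-fold under the mutant-labelled parietal library. *Acvrl1*, the endothelial type I receptor ALK1, had its lowest value in wild-type parietal bone at 5.94 FPKM and 7.98 to 9.28 FPKM in the others. Of the 10 endothelial markers 8 were higher in the mutant-labelled parietal library than in wild-type parietal bone and 7 were lower in wild-type parietal than in wild-type frontal bone, while their sum was not lowest in wild-type parietal bone. The part of endothelial cells was not tested.

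Of the other receptors 4 differed by less than 2-fold between libraries. *Bmpr2*, the type II BMP receptor, ranged from 10.7 to 16.8 FPKM, *Acvr1*, the type I receptor ALK2, from 11.7 to 14.4 FPKM, and *Acvr1b*, the activin receptor ALK4, from 4.44 to 6.10 FPKM. *Tgfbr3*, the co-receptor betaglycan, was the steadiest receptor, at 10.9 to 12.2 FPKM. *Acvr2b*, a type II activin receptor, was between 1.66 and 3.55 FPKM with its highest value in the mutant-labelled parietal library. *Bmpr1b*, a BMP receptor of cartilage, was near or under the 1 FPKM level, at 0.957, 0.372, 1.47 and 0.620 FPKM, with both frontal libraries above both parietal ones.

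*Smad4*, the common partner, was at 21.5, 29.8, 26.7 and 25.6 FPKM in the order of libraries given above, and *Smad5* at 21.1, 29.4, 19.5 and 20.2 FPKM. *Smad1* was at 8.77, 16.0, 12.0 and 18.2 FPKM and was higher in both parietal libraries than in both frontal ones. *Smad2* ranged from 5.44 to 8.01 FPKM, *Smad3* from 13.8 to 15.4 FPKM and *Smad9* from 2.23 to 3.18 FPKM. *Smad3* was the steadiest of the genes that reached 1 FPKM, with 1.11-fold between its highest and lowest library.

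The inhibitory *Smad6*, itself a target of BMP signalling, was at 12.4 FPKM in frontal and 11.3 FPKM in parietal wild-type bone, 16.2 FPKM in frontal *Twist1*+/- bone and 29.9 FPKM in the mutant-labelled parietal library. The last library stood above the other 3 and was 2.65-fold over wild-type parietal bone (log2 ratio 1.40), against 1.31-fold between the frontal bones. *Smad7*, the inhibitor induced by TGF-beta, had the same library at the top but a smaller range, 6.64 to 9.002 FPKM.

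The antagonist *Fst* (chr13:115242470-115249159 on the minus strand of mm9), which encodes the activin-binding protein follistatin, was the gene that differed by more than 2-fold with genotype label in both bones. It was at 2.39 FPKM in frontal and 2.03 FPKM in parietal wild-type bone, and at 5.38 FPKM in *Twist1*+/- frontal and 4.82 in the mutant-labelled parietal library. The ratio was 2.25-fold between the frontal bones (log2 ratio 1.17) and 2.37-fold between the parietal bones (log2 ratio 1.24). These levels are low, and with a pseudocount of 1 FPKM added to each value both ratios came inside the 2-fold line. The log2 ratios were then 0.91 in the frontal and 0.94 in the parietal comparison. Of 46 genes this 1 (2.17%) was more than 2-fold higher in both bones, against 2.12% of 13430 genes. Markers of nasal and airway epithelium were higher in the same libraries, 10 of 10 between the frontal and 9 of 9 between the parietal bones, and their part in the level of *Fst* was not tested. Of the 8 antagonists and modulators 6 were higher with the *Twist1*+/- label in frontal bone (75%, against 44.6% of all genes) and 5 in parietal bone (62.5%, against 46.9%).

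*Nog*, which encodes the BMP antagonist noggin of open sutures, was at 5.22, 6.60, 7.995 and 13.2 FPKM in the order of libraries given above. Its ratio in parietal bone, 2.002-fold, lay at the 2-fold line. *Fstl3*, a follistatin-like inhibitor of activin, was at 2.72 and 1.69 FPKM in wild-type and *Twist1*+/- frontal bone and at 1.32 FPKM in parietal wild-type bone and 2.94 FPKM in the mutant-labelled parietal library. It was the 1 gene of 46 (2.17%) that differed by more than 1.5-fold in opposite directions in the 2 bones, against 3.40% of 13495 genes. *Grem1*, the BMP antagonist gremlin 1, was low, at 1.41, 0.615, 2.27 and 1.21 FPKM, with the frontal library above the parietal library of each label.

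*Twsg1*, a modulator of BMP and chordin, and *Bambi*, a pseudoreceptor that blocks TGF-beta and BMP signalling, were the most abundant of their group. *Twsg1* was at 24.04, 49.6, 27.2 and 29.2 FPKM and *Bambi* at 20.7, 42.7, 21.0 and 31.1 FPKM in the same order. Wild-type parietal bone was the highest library for both, 2.06-fold and 2.07-fold above wild-type frontal bone. *Chrd*, the BMP antagonist chordin, ranged from 2.48 to 4.41 FPKM and *Chrdl1*, its relative, from 6.86 to 11.03 FPKM.

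Among the matrix proteins *Tgfbi*, a TGF-beta-induced adhesion protein, was at 35.05 FPKM in frontal and 87.2 FPKM in parietal wild-type bone, 39.9 FPKM in frontal *Twist1*+/- bone and 53.5 FPKM in the mutant-labelled parietal library. It was 2.49-fold higher in parietal than in frontal bone of the wild type. Of the latent TGF-beta binding proteins, *Ltbp4* was at 14.6, 9.45, 17.9 and 25.8 FPKM, 2.73-fold higher in the mutant-labelled parietal library than in wild-type parietal bone (log2 ratio 1.45). *Ltbp3* was at 24.5, 37.3, 29.6 and 44.7 FPKM, with both parietal libraries above both frontal ones. *Ltbp1* was steady at 7.77 to 9.71 FPKM, and *Ltbp2* lay between 3.45 and 6.15 FPKM. All 5 genes of this group were higher in the parietal than in the frontal library labelled *Twist1*+/-, by a median log2 ratio of 0.42, against 47.6% of all genes and a median of -0.03. With the trend by GC content subtracted, the 5 log2 ratios lay between 0.04 in *Ltbp2* and 0.38 in *Tgfbi*.

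**Figure D3:**
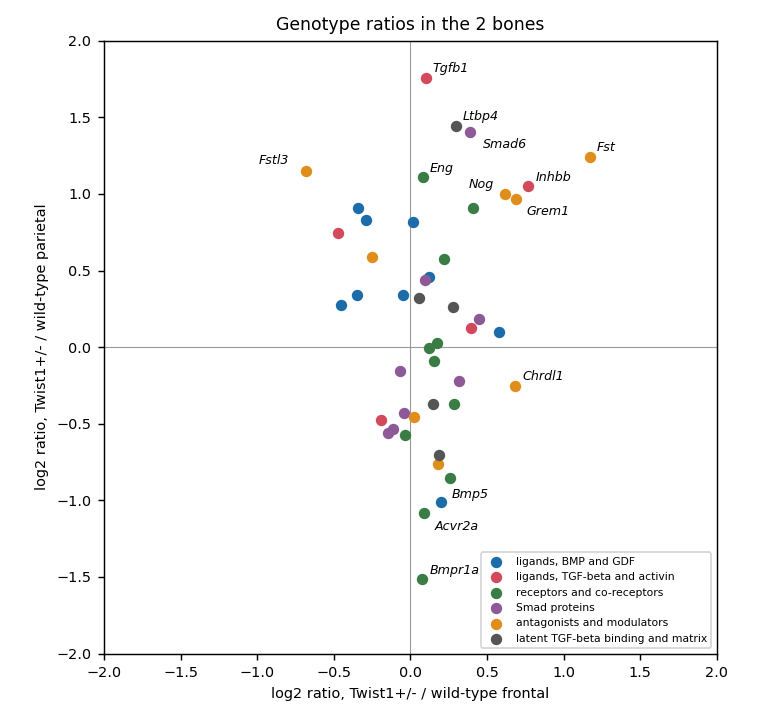
Log2 ratio of the library labelled *Twist1*+/- over wild-type in frontal bone (horizontal axis) against that in parietal bone (vertical axis), for the 46 genes that reached 1 FPKM in both comparisons, coloured by role. *Fst* is far to the upper right at 1.17 and 1.24, *Fstl3* is alone to the upper left at -0.68 and 1.15, and *Tgfb1* and *Bmpr1a* are near 0 in frontal bone.

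The parietal and frontal comparisons share no library. The direction was the same in both bones for 25 of 46 genes (54.3%), against 54.4% of 13430 genes. Of the 46 genes 19 were higher in both and 6 lower in both. Of the 13430 genes 3089 were higher in both and 4215 lower in both, so only the pooled share was near that of all genes. With the GC trend subtracted the counts were 20 and 5 of 46, against 3355 and 3368 of 13430.

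Ratios in the parietal comparison varied with the GC content of the transcript. GC content was taken from the longest coding transcript of each gene, and all 49 genes had a value, from 39.9% in *Acvr2a* to 62.5% in *Tgfb1*. Across genes Spearman's rho between the log2 ratio and GC content was 0.69 for the 46 genes and 0.55 for 12554 genes, as a description of the 2 libraries that all points share. Over all genes the median log2 ratio was -0.59 in the group with the lowest GC content and 0.70 in that with the highest, of 20 groups. The rho of the genes was -0.09 in the frontal comparison (0.11 over all genes), -0.37 between the wild-type bones (-0.13) and 0.63 between the bones labelled *Twist1*+/- (0.42). Of the 23 genes above the median GC content 18 were higher in the mutant-labelled parietal library, and of the 23 others 14 were lower.

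To show the contrast in composition, 90 bases from the middle of the longest coding exon are printed for the gene with the highest GC content and for 2 genes at the lower end, 5′ to 3′ on the coding strand from mm9 (GENCODE vM1), with G and C in capitals. The *Tgfb1* stretch, chr7:26473021-26473110 on the plus strand in exon 1 of 7, holds 68.9% GC. The *Bmpr1a* stretch, chr14:35235850-35235939 on the minus strand in exon 10 of 13, holds 48.9%, and the *Acvr2a* stretch, chr2:48725868-48725957 on the plus strand in exon 2 of 11, holds 41.1%.
Tgfb1: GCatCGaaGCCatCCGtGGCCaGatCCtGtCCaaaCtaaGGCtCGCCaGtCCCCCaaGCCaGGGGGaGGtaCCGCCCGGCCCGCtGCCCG
Bmpr1a: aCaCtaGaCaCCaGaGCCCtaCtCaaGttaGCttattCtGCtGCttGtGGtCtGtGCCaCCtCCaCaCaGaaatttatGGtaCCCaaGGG
Acvr2a: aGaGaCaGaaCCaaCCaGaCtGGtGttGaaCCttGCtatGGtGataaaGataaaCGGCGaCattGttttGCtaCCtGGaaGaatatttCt

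After subtraction of the median ratio found for genes of like GC content, the log2 ratio of *Tgfb1* in the parietal comparison went from 1.76 to 1.06 and that of *Bmpr1a* from -1.51 to -0.92. *Smad6* went from 1.40 to 0.70, *Ltbp4* from 1.45 to 0.74, *Eng* from 1.11 to 0.56, *Fstl3* from 1.15 to 0.70, *Inhbb* from 1.05 to 0.35 and *Nog* from 1.002 to 0.45. *Acvr2a* went from -1.08 to -0.49 and *Bmp5* from -1.01 to -0.41. The ratio of *Fst*, a transcript of 45.9% GC, went the other way, from 1.24 to 1.69, and that of *Grem1*, with 44.7% GC, from 0.97 to 1.44. With this subtraction *Tgfb1*, *Fst* and *Grem1* were past 2-fold and no gene was past it on the lower side, against 9.11% and 6.1% of all genes, and *Fst* in place of *Tgfb1* was past 3-fold. In the frontal comparison *Fst* went from 1.17 to 1.28 and stayed the only gene past 2-fold. In the comparison of wild-type bones *Bmp6* went from -1.63 to -1.53, which is inside the 3-fold line.

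**Figure D4:**
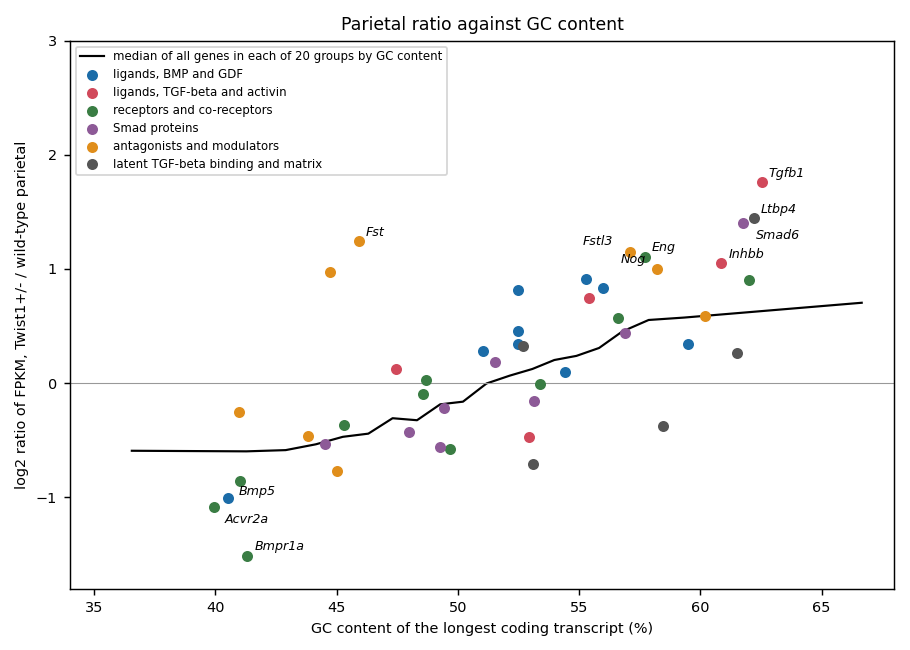
GC content of the longest coding transcript in percent (horizontal axis) against the log2 ratio of the mutant-labelled parietal library over wild-type parietal bone (vertical axis) for 46 genes, coloured by role. The black line joins the medians of all genes in 20 groups of GC content, from -0.59 to 0.70, and *Fst* at 1.24 lies far above it.

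Promoters were looked at for the 2 genes past 3-fold and for *Smad6*. RefSeq promoters of assembly GRCm38.p6, from 250 bases before to 50 after the start, were found for 34 of the 49 genes, 42 promoters in all. They were searched for CANNTG, the E-box bound by Twist proteins and other basic helix-loop-helix factors, for GTCTAGAC, a palindrome of the Smad-binding sequence, and for GGCGCC, a GC-rich element of BMP-responsive genes. Each reads the same on both strands, and a match of the first can overlap a match of the others by 1 base. CANNTG was present in at least 1 promoter of 20 of the 34 genes (58.8%), against 74.99% of the 27025 genes with a promoter, GGCGCC in 1 or more of 11 (32.4%), against 13.4%, and GTCTAGAC in that of *Smad6* alone, against 0.248%. Over single promoters CANNTG was in 57.1% of the 42, against 72.3% of 32851, GGCGCC in 31.0%, against 11.9%, and GTCTAGAC in 2.38%, against 0.213%. GGCGCC is made of G and C only, and these shares were not set against promoters of like GC content. The 250 bases before the start are printed 5′ to 3′ on the coding strand with CANNTG in capitals. The *Tgfb1* promoter, chr7:25686752-25687001, held 75.2% GC and no CANNTG in the printed window. The *Bmp6* promoter, chr13:38345466-38345715, held 68.8% GC and 2 of them, CACGTG at position -127 and CACCTG at -51 from the start. The median over all promoters was 52.4% GC.
Tgfb1 promoter: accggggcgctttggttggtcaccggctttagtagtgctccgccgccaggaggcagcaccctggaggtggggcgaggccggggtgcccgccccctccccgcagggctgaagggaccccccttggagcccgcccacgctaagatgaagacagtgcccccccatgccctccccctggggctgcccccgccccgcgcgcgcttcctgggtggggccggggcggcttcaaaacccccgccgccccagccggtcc
Bmp6 promoter: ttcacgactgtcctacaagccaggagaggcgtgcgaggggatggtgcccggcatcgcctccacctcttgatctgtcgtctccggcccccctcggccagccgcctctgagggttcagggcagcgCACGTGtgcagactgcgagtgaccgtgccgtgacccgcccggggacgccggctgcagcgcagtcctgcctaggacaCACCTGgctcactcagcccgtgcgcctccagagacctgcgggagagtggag

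The site in *Smad6* is shown with its flanks, since it is the one gene that had it. The 30 bases, chr9:64022045-64022074 on the minus strand of GRCm38.p6, carry the palindrome in capitals, and its first base lies 4 bases before the annotated start. A CANNTG match, CATATG, follows at position 7 after the start, does not overlap the palindrome and is left in lower case.
Smad6 site: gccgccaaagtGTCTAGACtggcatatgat
A match of letters is a description of these windows and does not show that a factor binds there.

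Another 102 genes of the pathway, in 6 lists that leave out the 49 genes, were counted in the same way. Past 2-fold in the parietal comparison 8 were higher and 8 lower of the 81 that reached 1 FPKM (9.88% each, against 10.8% and 9.4% of all genes), and in the frontal comparison 2 were higher and 1 lower of 78 (2.56% and 1.28%, against 4.98% and 2.2%). Between the wild-type bones 16 were higher and 3 lower in parietal bone of 80 (20% and 3.75%, against 11.2% and 15.6%), and between the bones labelled *Twist1*+/- 10 were higher and 2 lower of 81 (12.3% and 2.47%, against 2.98% and 8.92%).

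Past 3-fold in the parietal comparison were 4 of them (4.94% of 81, against 8.19% of all genes). *Sost*, the sclerostin gene of osteocytes, a Wnt and BMP antagonist, was at 18.3 FPKM in wild-type parietal and 75.1 in the mutant-labelled parietal library, and at 26.7 and 45.5 in wild-type and *Twist1*+/- frontal bone. *Gdf15*, a stress-induced ligand, was at 0.0572 and 1.02 FPKM in the parietal libraries, and *Mstn*, the muscle ligand myostatin, at 1.24 and 0.0979 FPKM. *Postn*, a periosteal matrix protein induced by TGF-beta, was at 1044 and 283 FPKM. *Sost* and *Gdf15* were thus higher in the mutant-labelled parietal library and *Mstn* and *Postn* lower. *Gdf15* and *Mstn* were near the 1 FPKM level in their higher library. Of the 10 skeletal muscle markers 8 were lower and 2 higher in the mutant-labelled than in the wild-type parietal library. The part of muscle in the level of *Mstn* was not tested. Between the frontal bones *Hfe2*, the BMP co-receptor hemojuvelin of muscle and liver, was the 1 gene past 3-fold (1.28%, against 3.89% of all genes). It was at 0.409 FPKM in wild-type and 3.16 FPKM in *Twist1*+/- frontal bone. The 10 skeletal muscle markers were all more than 3-fold higher in the same *Twist1*+/- library. Between the bones labelled *Twist1*+/- the integrin gene *Itgb8*, whose product activates latent TGF-beta, was past 3-fold, at 0.110 FPKM in parietal and 1.15 FPKM in frontal bone. The share of the lists past 3-fold in that comparison was 2.47%, against 4.09% of all genes.

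Between the wild-type bones 9 were more than 3-fold higher in parietal bone and 1, *Itgb8*, lower. Together they were 12.5% of 80, against 13.3% of all genes. The follistatin-like gene *Fstl1* was at 457 FPKM in parietal and 128 in frontal bone, *Timp1*, a metalloproteinase inhibitor, at 552 and 167 FPKM, and the homeobox gene *Msx2*, a BMP target of the sutures, at 5.44 and 1.52 FPKM. The contractile genes *Acta2* and *Tagln* were at 101 and 28.4 FPKM and at 67.7 and 20.1 FPKM. *Cdkn2b*, a cell cycle inhibitor induced by TGF-beta, *Sostdc1*, *Hfe2* and *Mstn* were the other 4. Skeletal muscle markers were 9 of 9 higher in the same library.

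The readout genes fixed for the pathway did not move as 1 group. *Id1*, a direct BMP target, was at 63.3 FPKM in frontal and 111 FPKM in parietal wild-type bone, 60.8 FPKM in frontal *Twist1*+/- bone and 124 FPKM in the mutant-labelled parietal library. *Id3* was at 276, 329, 289 and 645 FPKM and *Id2* at 77.4, 197, 72.3 and 93.7 FPKM. All 3 were higher in parietal than in frontal bone of either label. In the mutant-labelled parietal library *Id3* was 1.96-fold higher and *Id2* 2.10-fold lower than in wild-type parietal bone. *Id4*, of the same list, was at 10.8, 6.29, 18.3 and 13.9 FPKM, lower in parietal than in frontal bone of either label. The TGF-beta target *Ctgf* was at 89.6, 147, 92.6 and 120 FPKM. Over the 26 target genes, 25 were higher in parietal than in frontal bone labelled *Twist1*+/- (96.2%, against 47.6% of all genes, median log2 ratio 0.50) and 20 between the wild-type bones (76.9%, against 49.5%, median 0.45). In the parietal comparison 15 of the 26 were higher (57.7%, against 46.9%, median 0.18) and in the frontal comparison 14 (53.8%, against 44.6%, median 0.06). All 8 osteoclast markers were also higher in parietal bone of either label. Skeletal muscle markers were too, 9 of 9 in the wild type and 10 of 10 in the libraries labelled *Twist1*+/-. Osteoblast markers, which share *Runx2* and *Sp7* with the target genes, were 6 higher and 3 lower, and 9 higher and 0 lower. Of 7 macrophage markers 7 and 5 were higher. All 8 neutrophil markers were lower in both. The part of these cells was not tested, and the target counts were not recomputed with the GC trend subtracted.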

How the data were processed

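Stranded poly(A) libraries were sequenced as single-end 75-base reads, which the authors aligned to mm9 with STAR (2.4.2a) and, with the Cufflinks (2.2.1) program Cuffdiff and an iGenomes annotation, deposited 1 FPKM value per gene and library; the depth of each library is not recorded in FPKM. R (3.2.2) is also named in the submitters' processing notes. The 49 genes and all gene lists were chosen with earlier results of these data known. Each library was grouped by its label. Ratios of FPKM were formed for 4 comparisons without scaling and without a pseudocount, and a gene was counted past 3-fold (or 2-fold) if it reached 1 FPKM in the higher library; a gene at 0 in one library and at least 1 FPKM in the other counted without a ratio. Named in all 4 libraries were genes past 3-fold in a comparison, those listed at 0 and the 2 most abundant of each role, and, chosen after the values were seen, those past 2-fold. For the 6 pathway lists, genes past 3-fold and a few target genes were named, and some of these are not reported here. Marker lists covered osteoblasts, osteocytes, endothelium, skeletal muscle, brain and meninges, nasal epithelium, skin, cartilage, osteoclasts, neutrophils, erythroid cells and macrophages. GC content, positions and sequence shared over 75 bases came from GENCODE vM1 of mm9, and the GC trend was the median ratio in 20 groups of genes. Promoters were those of RefSeq on GRCm38.p6. For relative depth, values from 0.005 to 0.1 FPKM were used. Alternatives were pseudocounts of 1 and 0.1, no floor, a floor of 10 FPKM, a 2-fold line, scaling to the median ratio or to *Gapdh*, and GC subtraction. The procedure was tested on simulated data. Python (3.11.15), pandas (2.3.3), NumPy (2.4.6) and matplotlib (3.10.9) were used.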

Additional observations from a re-analysis of the deposited data

Results flagged for a closer look

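*Fstl3* went in opposite directions with the *Twist1*+/- label in the 2 bones. Its FPKM was 2.72 in wild-type and 1.69 in *Twist1*+/- frontal bone, and in the parietal bones 1.32 in the wild-type and 2.94 in the mutant-labelled library. The log2 ratio was -0.68 in frontal and 1.15 in parietal bone, a difference of 1.83. With 1 library for each group this difference was not tested. It rests on values under 3 FPKM, and with the GC trend subtracted the ratios were -0.68 and 0.70.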

How the results depend on the processing

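The counts, medians and extremes of the 49 genes and their 25 log2 ratios past a line were recomputed; the pathway, target and marker lists were not. None of the 25 ratios changed sign. In the parietal comparison the 1 gene past 3-fold became 3 with no floor, 4 when scaled to *Gapdh* and 11 at 2-fold, and the median log2 ratio of 0.22 became -0.032 with a floor of 10 FPKM and 0.61 when scaled to *Gapdh*. In the frontal comparison the count of 0 became 1 at 2-fold. Between the wild-type bones the 1 gene became 0 with a pseudocount of 1, with a floor of 10 FPKM and with the GC trend subtracted, 3 with no floor, 4 when scaled to *Gapdh* and 11 at 2-fold, and the median log2 ratio of 0.14 became 0.53 with a floor of 10 FPKM and -0.31 when scaled to *Gapdh*. Between the bones labelled *Twist1*+/- the count of 0 became 2 at 2-fold. The 30 genes with wild-type parietal bone at an extreme became 15 with a floor of 10 FPKM. The 16 with it lowest became 5, while the 14 with it highest became 10. Fewer genes reach that floor, and the shares among them are not given. The log2 ratio of *Gapdh* itself was -0.39 in the parietal and 0.44 in the wild-type comparison, whereas the median over all genes was within 0.1 of 0 in all 4. The median ratio of the genes thus has no direction that holds under each scaling or floor in either comparison. With the GC trend subtracted the parietal count stayed at 1, but the gene was *Fst* and not *Tgfb1*. Of the 25 log2 ratios past 2-fold or 3-fold of single genes, 16 came inside their line with the GC trend subtracted, 13 with a pseudocount of 1, 7 when scaled to *Gapdh* and 1 when scaled to the median ratio. The cause of the GC trend was not tested. Depth is not given by FPKM, and with 1 library for each group no spread between animals can be set beside a ratio.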
